A study of Caenorhabditis elegans with 2 samples.

Results

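The tRNA genes on the 5 autosomes of Caenorhabditis elegans were examined for binding of KLU-1, a zinc finger protein encoded by klu-1 (ZK337.2). All genes annotated as tRNA on chromosomes I to V were taken, 336 of the 612 tRNA genes on the 6 chromosomes, and the other 276 lie on chromosome X. Genes were chosen by annotation alone, with no use of a measured value. Where genes within 400 bp of each other were merged, the 336 genes formed 308 loci. Binding had been mapped by chromatin immunoprecipitation and sequencing (ChIP-seq) in whole L4 larvae of strain RW12326 at 47 h, grown from first-stage larvae synchronised by starvation after bleaching. In this strain a TY1, EGFP and 3xFLAG tag had been inserted at klu-1 by CRISPR, so the protein was expressed from its own locus, and sonicated chromatin of 200 to 800 bp was recovered with an antibody against GFP. There was 1 group with 2 biological replicates. Untagged animals and input libraries were not analysed here, so nothing below compares tagged with control animals.

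Transfer RNA genes are transcribed by RNA polymerase III. Their promoter lies inside the gene as an A box near the 5′ end and a B box near the 3′ end, both read by the factor TFIIIC, which places TFIIIB just upstream of the start, and a run of T downstream ends transcription. Each gene belongs to the class of the amino acid its tRNA carries, and the anticodon decides which codons it reads. Worm tRNA genes occur in many identical copies, and many sit inside introns of protein-coding genes.

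The gene sequences below show the layout at strongly bound genes and at one gene that just missed the pooled threshold used below, though it is in the authors' conservative list. Capitals mark the A box match and, where present, the B box core GTTCGANNC, both read on the gene strand, and all sequences are the WBcel235 (ce11) reference, 5′ to 3′. K06A4.t1 and F44A2.t1 are the strongest genes whose sequence occurs once among annotated tRNA genes. F29C4.t1 lies in a collagen gene and F22B7.t1 carries an intron. W09G10.t3 lies near W09G10.t1 and had no summit in the pooled thresholded list. Its ranked peak is shared with the adjacent gene W09G10.t2, to which the summit is nearer.
K06A4.t1, tRNA-Ala (CGC), chrV:9503562-9503633, plus strand: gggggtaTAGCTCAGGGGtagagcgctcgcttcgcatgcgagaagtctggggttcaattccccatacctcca
F44A2.t1, tRNA-Ala (CGC), chrV:9318202-9318273, plus strand: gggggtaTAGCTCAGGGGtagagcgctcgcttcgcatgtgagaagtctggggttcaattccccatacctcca
F29C4.t1, tRNA-Arg (CCT), chrIV:143982-144054, plus strand: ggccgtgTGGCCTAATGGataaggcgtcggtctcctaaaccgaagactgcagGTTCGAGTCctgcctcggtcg
F22B7.t1, tRNA-Leu (CAA), chrIII:8639306-8639425, plus strand: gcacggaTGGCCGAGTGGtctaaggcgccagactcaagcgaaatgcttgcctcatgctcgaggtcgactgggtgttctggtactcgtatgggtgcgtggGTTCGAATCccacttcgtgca
W09G10.t1, tRNA-His (GTG), chrII:3521487-3521558, minus strand: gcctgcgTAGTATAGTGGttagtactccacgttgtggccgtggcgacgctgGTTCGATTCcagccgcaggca
W09G10.t3, tRNA-Thr (AGT), chrII:3519086-3519157, minus strand: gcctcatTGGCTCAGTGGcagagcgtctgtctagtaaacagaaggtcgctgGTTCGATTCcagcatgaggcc

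The 2 tRNA-Ala genes differ by C39T, counted from 1 at the 5′ end of K06A4.t1. The A box match was found in 307 of the 336 genes (91.4%) and the B box core in 241 (71.7%), and 218 genes held both. A run of 4 T began within 50 bp downstream of 332 genes, at a median of 5 bp past the gene end. Among end-to-end tiles of 72 bp along the autosomes, the median gene length, read on the plus strand, 0.965% held the A box match at the same distance from their start and 0.261% held the B box core. A run of 4 T was in 51.5% of 50 bp tiles, so that motif is common anywhere. These are matches of letters and not measured binding sites. A gene without an exact match is not shown to lack the box. K06A4.t1 and F44A2.t1, counted as without the core, hold gttcaattc, with AA where the core has GA.

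KLU-1 peaks lay at about 1 in 3 of these genes. A gene was counted as bound when the summit of a peak in the authors' pooled thresholded list, made from both replicates at an irreproducible discovery rate (IDR) of 0.01, lay inside it or within 200 bp. By that count 113 of 336 genes (33.6%, 95% Wilson interval 28.8 to 38.8) were bound, and 104 of 308 loci (33.8%, 28.7 to 39.2). Over the autosomes as a whole, 0.48% of 72 bp tiles had a summit as close. The share was 2.5% over all annotated autosomal genes, 3.51% over protein-coding genes, 19.2% over snoRNA genes and 13.5% over snRNA genes, the RNAs of ribosomal RNA modification and of splicing. Over all 612 tRNA genes it was 37.9%. Each gene share counts a summit anywhere in the gene or within 200 bp, so longer genes had longer windows. Only the tiles were set to the median tRNA gene length. The 104 distinct summits at these genes were 12.3% of the 845 autosomal peaks in the list. The deposited lists carry no read counts, which leaves sample depth unknown, and the intervals cover counting error over genes only.

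Each replicate's own list held fewer of the genes. Replicate 1 alone had summits at 71 genes (21.1%, 17.1 to 25.8) against 0.265% of tiles, and replicate 2 alone at 41 genes (12.2%, 9.12 to 16.1) against 0.174% of tiles. The conservative pooled list had 124 genes (36.9%) against 0.45% of tiles. Of the 113 genes, 32 were also in both replicate lists, 35 in replicate 1 and not replicate 2, 9 in replicate 2 and not replicate 1, and 37 in neither. The overlap of the replicate lists was 78.0% of the replicate 2 genes and 45.1% of the replicate 1 genes. A further 29 genes had a summit in another thresholded list but not in the pooled one, which leaves 194 genes in none of the 4 lists. Before any threshold, 305 genes (90.8%) had a summit in the pooled ranked list, where 55.4% of tiles also had one, and 12 genes had a summit in none of the ranked lists.

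Peak signal is the strength that the authors' peak caller assigned, on a scale not given in the sources used here. At the 113 bound genes it ran from 54.2 to 183.9 with a median of 84.2 (quartiles 71.1 and 97.4). The other 741 autosomal peaks of the list had a median of 77.0 and reached 648.7, and 67 of them exceeded the strongest tRNA gene peak. Only 2 of the genes, T21B4.t1 and F47G6.t1, were in the upper 100 of the 1043 peaks by signal, and 41 ranked below the middle of the list.

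The signal in the ranked list fell along a continuous range. Among the 305 genes with a ranked peak the median was 54.4, against 20.7 over 106003 autosomal ranked peaks, of which 1.38% reached 54.4. Each gene took its strongest ranked peak within 200 bp, while the 106003 are single peaks, so the 2 medians are unlike measures. None of the 94 genes at or under 40 was bound, 2 of 76 from over 40 to 60, 45 of 67 from over 60 to 80, 38 of 40 from over 80 to 100, and all 28 above 100. The 192 genes with a ranked peak that did not pass had a median of 40.7. The bound genes of lowest signal were C09B9.t1, a tRNA-Lys gene with 54.2, and C13B4.t1, a tRNA-Gln gene with 55.1. Their −log10 IDR values were 2.05 and 2.31 against the 2 needed. The 4 genes of highest signal that did not pass were the neighbours W09G10.t3 and W09G10.t2, ZK507.t1 and T28F2.t1. W09G10.t3 (tRNA-Thr) and W09G10.t2 (tRNA-Lys) shared a peak with a signal of 92.3 and a −log10 IDR of 1.98, whose summit lay 194 bp upstream of the first and 29 bp upstream of the second. ZK507.t1, a tRNA-Asn gene, had a signal of 76.4, with 24.97 in replicate 1 and 42.7 in replicate 2, and a −log10 IDR of 0.318, far from the 2 needed. T28F2.t1, a tRNA-Met gene, had 74.5, with 30.0 and 43.0, and a −log10 IDR of 1.88. All 4 genes were in the conservative thresholded list, where their −log10 IDR values were 2.76 for the W09G10 pair, 2.17 for ZK507.t1 and 2.46 for T28F2.t1.

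**Figure D1:**
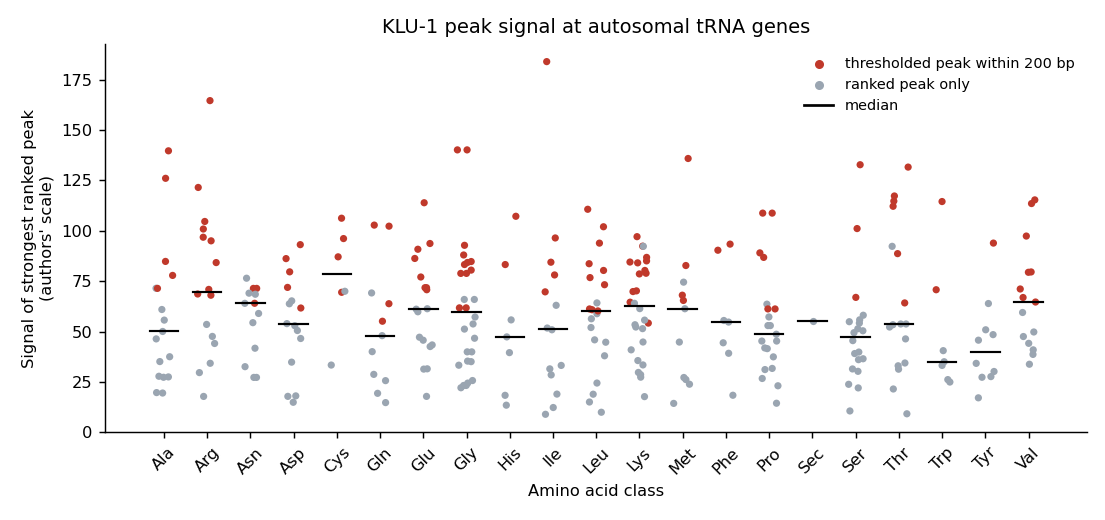
Each point is 1 autosomal tRNA gene with a ranked peak, placed by amino acid class (horizontal) and by the signal of its strongest pooled ranked peak on the authors' scale (vertical). Red points passed the threshold, grey points did not, and bars are class medians; every gene above 100 is red and the highest is the tRNA-Ile gene T21B4.t1 at 183.9.

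The strongest tRNA gene peak was at T21B4.t1, a tRNA-Ile gene on chromosome II inside an intron of the collagen gene col-85, on the opposite strand. Its signal was 183.9 in the pooled list, 99.8 in replicate 1 and 82.4 in replicate 2. F47G6.t1, a tRNA-Arg gene in spe-15, followed at 164.6, with 91.8 and 69.8 in the replicates and a pooled summit 97 bp upstream of the gene. The pair F49D11.t2 and F49D11.t1, both tRNA-Gly, shared 1 peak of 140.1, with 55.6 and 85.0. By the deposited values, replicate 1 was thus the higher at the first 2 genes and replicate 2 at the pair.

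Among genes with a sequence of their own, K06A4.t1 in the sugar transporter gene swt-5 had 139.7 (59.1 in replicate 1 and 72.9 in replicate 2). F44A2.t1, which differs from it by the single base given above, had 126.0 (73.4 and 51.4). The other autosomal tRNA-Ala gene with this anticodon, C06B8.t1, had a ranked signal of 35.1 and was not bound. The intron-bearing F22B7.t1 in the potassium channel gene twk-7 had 110.7 (43.4 and 67.0).

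Other leading genes came from many classes. T15B12.t1 (tRNA-Met) had a signal of 135.9, K11H3.t2 (tRNA-Ser) 132.8, F52C9.t1 (tRNA-Thr) 131.6, C24H11.t1 (tRNA-Thr) 117.3 and F22G12.t1 (tRNA-Val) 115.3. The tRNA-Trp gene sup-5, known for amber suppressor mutations and located in an intron of fli-1, had 114.5, with 65.5 in replicate 1 and 50.9 in replicate 2. M01E10.t2 (tRNA-Glu) had 113.9, W09D6.t2 (tRNA-Pro) 108.8, and C37A2.t1 (tRNA-Cys), in the cyclin E gene cye-1, had 106.2. For the classes of lowest leading signal, the values were 102.8 at T03E6.t1 (tRNA-Gln), 97.1 at F18C5.t1 (tRNA-Lys), 93.9 at F56F4.t1 (tRNA-Tyr), 93.4 at Y66D12A.t1 (tRNA-Phe), 93.1 at F41A4.t1 (tRNA-Asp) and 71.4 at F57G8.t4 (tRNA-Asn). The summit at F57G8.t4 lay 190 bp upstream of it and was shared with F57G8.t1.

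Genes named col, for collagen, hosted 4 tRNA genes in introns and all 4 were bound, against 34.6% of all intronic genes, a group picked after its values were seen and therefore not tested. They were T21B4.t1 in col-85, F29C4.t1 in col-99 with a signal of 121.5 (79.7 in replicate 1 and 43.2 in replicate 2), W09G10.t1 in col-72 with 107.2 (53.4 and 49.8), and F33D11.t2, a tRNA-Arg gene, with 43.5 and 48.7 in the replicates.

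The replicates ordered the genes in part alike. Over the 254 genes ranked in both, the Spearman correlation of signals was 0.582 and the Pearson correlation of log2 signals was 0.576. Over the 112 bound genes ranked in both it was 0.320 and 0.290, and 57 were higher in replicate 1 and 55 in replicate 2. These correlations are across genes that share the same 2 libraries. Neighbours that shared a peak entered the correlations and counts once per gene with the same values. F49D11.t2 and F49D11.t1, for example, both had 55.6 in replicate 1 and 85.0 in replicate 2. The bound genes had been selected by the pooled IDR threshold. Their pooled signals began at 54.2, against 8.91 over all genes with a ranked peak. Whether the 2 replicate lists share a scale is not known, so higher and lower describe the deposited values only.

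**Figure D2:**
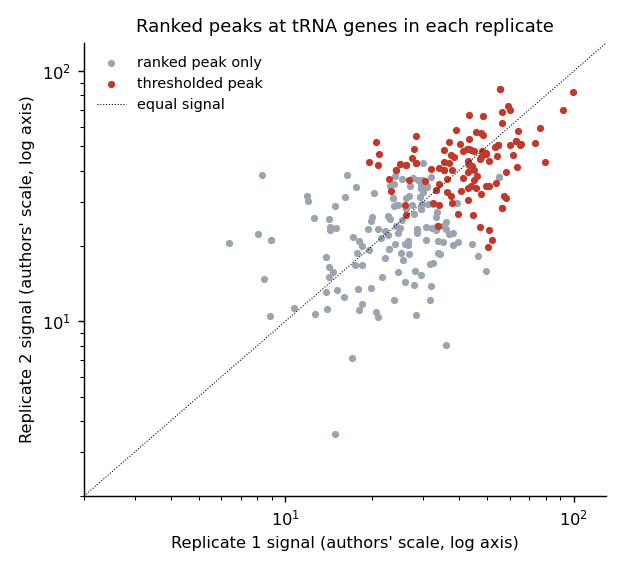
Each point is 1 of the 254 autosomal tRNA genes ranked in both replicates, with replicate 1 signal on the horizontal and replicate 2 signal on the vertical log axis. Red points are genes bound in the pooled list, and the dotted line marks equal deposited values. The bound genes fall on both sides of it, 57 higher in replicate 1 and 55 in replicate 2.

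Summits were centred on the 5′ part of the genes. Measured from the 5′ end along the gene strand, the median summit of the 113 genes lay 15 bp into the gene (quartiles -4 and 34). The median was 9 bp in the replicate 1 list, 16 bp in the replicate 2 list and 14.5 bp in the conservative list. The summit lay inside the gene at 72 of 113 genes (63.7%, 54.5 to 72.0), upstream at 36 and downstream at 5. These counts are by gene, and the interval takes genes as independent. Of the 113 genes, 18 shared 9 summits, so 1 summit between 2 genes can count as upstream of both. At the 192 genes whose ranked peak had not passed, the median was 14.5 bp but the spread was wider (quartiles -24 and 57), and 79 summits (41.1%, 34.4 to 48.2) were inside the gene. Of 75 bound genes with both box matches and no intron, 31 summits lay before the A box match, 31 from its start to the B box core, and 13 at or past the core. The core was taken as its first match anywhere in the gene, with a median start at base 53. In the tRNA-Trp sequence that sup-5 shares it began at base 25, so the boundary used there was earlier. All 113 peaks were 240 bp wide, longer than the genes, so the summit is the finest position these lists give.

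**Figure D3:**
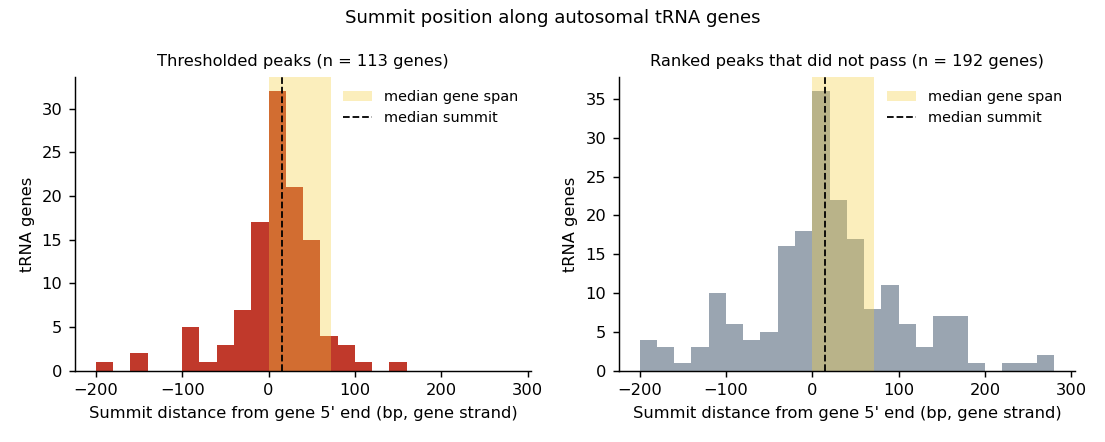
Histograms of summit distance from the 5′ end of the gene in bp along the gene strand, in 20 bp bins, for the 113 genes with a thresholded peak (left) and the 192 with a ranked peak that did not pass (right). The shaded band is the median gene span and the dashed line the median summit, 15 bp and 14.5 bp; the left distribution is the narrower.

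At 9 places, 2 genes shared 1 summit, so 18 of the 113 bound genes were not independent. In 8 of these pairs the genes were on opposite strands, in 7 they pointed away from each other, and in 6 they had the same sequence. The strongest such pair was F49D11.t2 and F49D11.t1, 98 bp apart, with the summit 2 bp upstream of the first and 97 bp upstream of the second. Next was the tRNA-Pro pair W09D6.t2 and W09D6.t1, 107 bp apart, with a signal of 108.8 and the summit 48 and 60 bp upstream of the 2 genes. At T22F3.t4 and T22F3.t1, also tRNA-Pro, the signal was 61.2.

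Classes of genes were then compared by their share bound, with two-sided Fisher's exact tests over genes and Benjamini-Hochberg adjustment over 8 comparisons. Repeated sequences and the A box match passed. Of 250 genes whose sequence is shared with another tRNA gene, 97 (38.8%, 32.97 to 44.97) were bound, against 16 of 86 unique genes (18.6%, 11.8 to 28.1). The difference was 20.2 percentage points (9.05 to 29.4), the odds ratio 2.77 and the adjusted p 0.00314. In a logistic model with chromosome arm, introns, clustering and coding starts, over 327 genes, the odds ratio was 3.12 (95% interval 1.66 to 5.86). Tests and model counted each gene as independent, identical copies included, so their intervals and p-values may be too narrow. In the list of replicate 2 alone the odds ratio was 1.78 and the adjusted p 0.736, with 34 and 7 bound genes. In the list of replicate 1 alone it was 2.82, with an adjusted p of 0.0436. The 11 genes for which no anticodon was found were all unique, and none was bound. Among genes with an anticodon, a setting added later, 97 of 250 repeated and 16 of 75 unique genes were bound. The odds ratio was then 2.34, with an adjusted p of 0.0223 by Fisher's exact test. The median ranked signal was 60.0004 at repeated and 41.8 at unique genes. None of the 31-base words within the repeated genes occurred once in the genome, which follows from the definition of that class. Within the unique genes the median was 59.9%, and for 100 bp flanks it was 100% in both classes. How reads from identical copies were placed is not given in the sources used here, and its part in the result was not tested.

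Of the 307 genes with an A box match, 111 (36.2%, 31.0 to 41.7) were bound, against 2 of 29 without one (6.90%, 1.91 to 21.96). The difference was 29.3 points (13.3 to 36.7), the odds ratio 7.65 and the adjusted p 0.00314. The call was lost in each replicate's own list by the same exact test, where 40 and 1 genes (replicate 2, adjusted p = 0.736) and 70 and 1 genes (replicate 1, adjusted p = 0.0597) were bound. The 29 genes included 17 tRNA-Ser genes and 16 unique genes, groups that overlap. The 2 bound ones were K11H3.t2 and F28F8.t4 (signal 66.9), both tRNA-Ser. With tRNA-Ser genes left out, a setting added later, 110 of 303 and 0 of 12 were bound (adjusted p = 0.0395 by Fisher's exact test), and the Wilson interval of the 0 of 12 reached 24.2%. All 12 of those genes have unique sequences, so in that setting the A box and the repeated sequence classes cannot be told apart by comparison with repeated genes. Among unique genes other than tRNA-Ser, 15 of 69 with the match and 0 of 12 without it were bound, which was not tested. By both classes together, 96 of 237 repeated and 15 of 70 unique genes with the match were bound, and 1 of 13 and 1 of 16 without it.

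The other 6 comparisons gave an adjusted p of 1. On chromosome arms, the outer parts of 3 equal segments, 76 of 226 genes (33.6%) were bound, and in centres 37 of 110 (33.6%, difference -10.9 to 10.3 points). Inside introns 65 of 188 (34.6%) were bound and between genes 45 of 139 (32.4%, difference -8.19 to 12.3). Of intronic genes on the host's strand 38 of 110 were bound, and on the opposite strand 27 of 77 (difference -14.4 to 12.9). With another tRNA gene within 1000 bp, 34 of 101 were bound, and of the other genes 79 (33.6%, difference -10.5 to 11.3). Within 500 bp of a coding transcript's start, 36 of 97 were bound, and elsewhere 77 of 239 (-5.97 to 16.3). With the exact B box core 81 of 241 were bound and without it 32 of 95 (-11.5 to 10.6). That comparison is of a spelling, since genes without the exact core are not shown to lack a B box. Each of these intervals spans 0 and reaches past 10 points on at least one side, so the classes are not shown to be alike.

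**Figure D4:**
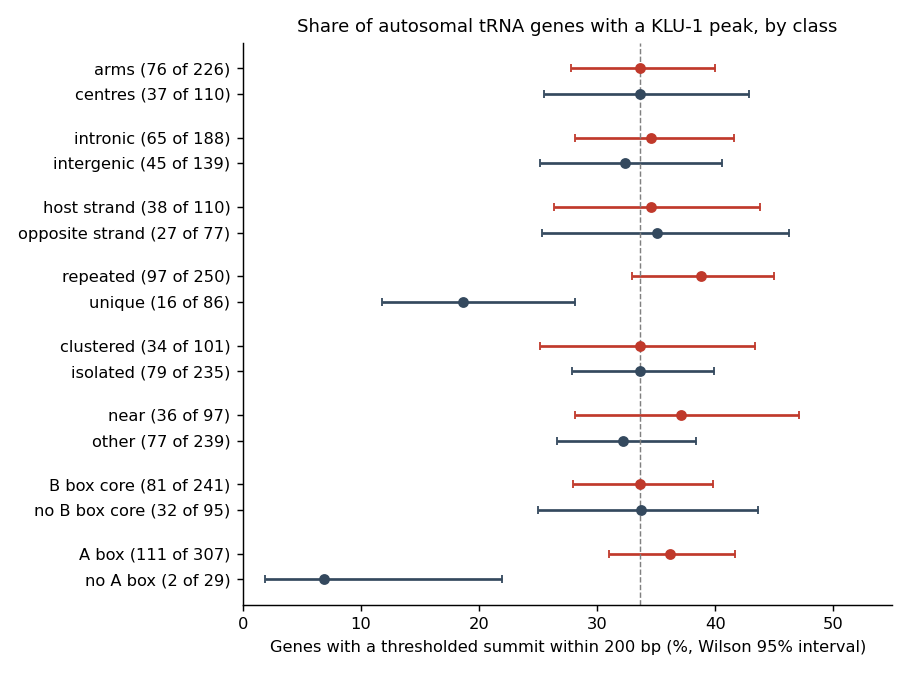
Share of autosomal tRNA genes bound (percent, horizontal) in the 8 paired classes, with Wilson 95% intervals; red is the first class of a pair, blue the second, and the dashed line is the share over all 336 genes, 33.6%. The unique genes (18.6%) and the genes without an A box match (6.90%) lie to the left, and the other pairs overlap the line.

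Genes with one identical sequence fell on both sides of the threshold. How reads were placed among such copies is not known here, as said above, so these counts describe peaks and not copies whose binding was measured apart. The 336 genes had 137 distinct sequences, and 43 of these were on 2 or more of the genes. At 30 of the 43, some copies were bound and others not, at 12 none was bound and at 1 all were. The largest set, 18 identical tRNA-Gly genes with anticodon TCC, had 9 bound genes at 6 distinct summits, since 3 pairs shared one, and the 16 with a ranked peak had signals from 24.4 to 140.1. In the conservative list 10 of the 18 were bound. Of 15 tRNA-Lys genes with CTT, 8 were bound, of 13 tRNA-Asn genes with GTT, 3 (6 in the conservative list), and of 9 tRNA-Ile genes with AAT, 5, with ranked signals from 12.3 to 183.9 in the last.

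**Figure D5:**
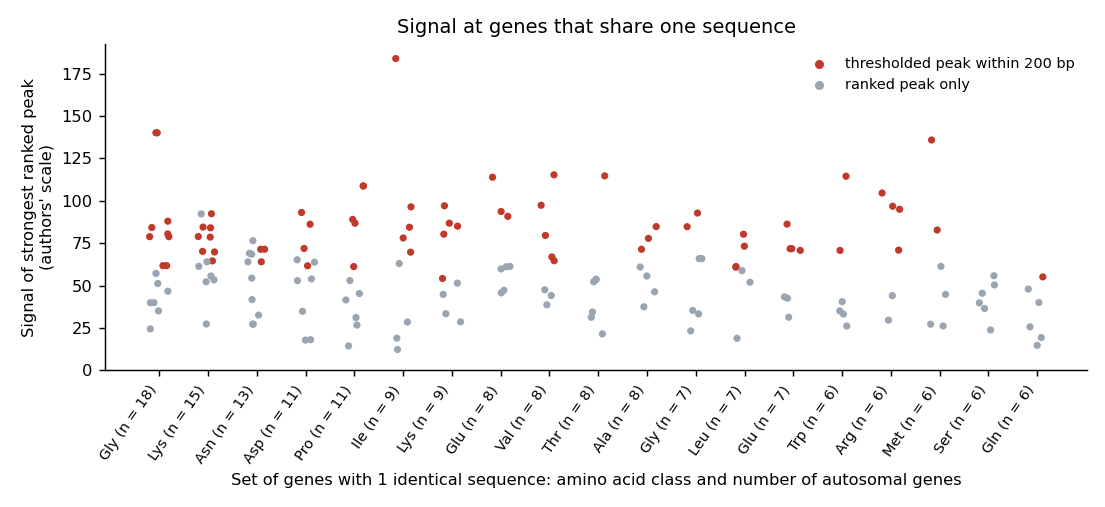
Signal of the strongest pooled ranked peak (authors' scale, vertical) at autosomal genes in the 19 sets of identical sequence with 6 or more genes, labelled by amino acid class and number of genes, where genes with no ranked peak have no point. Red points passed the threshold and grey ones did not; 18 of the 19 sets hold both, and 16 tRNA-Gly genes of the first set spread from 24.4 to 140.1.

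Bound genes came from 20 of the 21 amino acid classes, the exception being the 1 tRNA-Sec gene, with a ranked signal of 55.4. No class differed from the other genes past an adjusted p of 0.05 in Fisher's exact tests over 21 classes, where the lowest adjusted p was 0.562. The only class with an unadjusted p under 0.05 was tRNA-Arg, with 10 of 17 genes bound (58.8%, p = 0.0336 by Fisher's exact test). At the extremes, 4 of 6 tRNA-Cys, 3 of 21 tRNA-Ser and 1 of 11 tRNA-Tyr genes were bound. Some anticodons had no bound gene, the largest groups being AGA of tRNA-Ser with 7 genes and TGC of tRNA-Ala and TAT of tRNA-Ile with 5 each, named after their values were seen. Of 17 genes with an intron, 11 of them tRNA-Tyr, 4 were bound (23.5%, 9.56 to 47.3).

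By autosome the share ran from 25.6% on V (20 of 78) through 31.3% on III (20 of 64), 33.3% on II (19 of 57) and 35.2% on IV (25 of 71) to 43.9% on I (29 of 66). No autosome passed the test against the other 4 (lowest adjusted p = 0.253 by Fisher's exact test, and none with an unadjusted p under 0.05). The largest difference was on I, 12.8 points above the others, with an interval of 0.137 to 25.9 and an unadjusted p of 0.0586 by the exact test. On chromosome X, 119 of 276 tRNA genes (43.1%, 37.4 to 49.0) were bound, 9.48 points more than on the autosomes (1.76 to 17.1), with an odds ratio of 1.496 and p = 0.019 by a two-sided Fisher's exact test. In the list of replicate 1 alone the odds ratio was 1.32 and p = 0.152, and in that of replicate 2 alone it was 1.79 and p = 0.0102 by the same exact test. Signals at bound genes had a median of 87.0 on X and 84.2 on the autosomes, and the median summit was 16 bp from the 5′ end on X and 15 bp on the autosomes.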

How the data were processed

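Peak lists of KLU-1 ChIP-seq were analysed as deposited. Per the deposited descriptions, the lists are on assembly ce11, and each replicate and the pool have a ranked list and one thresholded by IDR. Neither an aligner nor a peak caller is named in the labels or file descriptions. The authors' signal and score columns and the deposited −log10 IDR were used only to describe, rank or filter peaks within a list. The pooled ranked lists have 8 more columns that name no sample, which were left aside. All peaks ended within the WBcel235 chromosomes.

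Genes came from Ensembl release 115 and amino acid classes from RefSeq products, found for 334 of the 336 genes. Anticodons were read from the sequence and found for 325 genes, after the first rule was loosened because it missed genes. The A box pattern was spelled out once the files were in hand. A summit counted within 200 bp of a gene. Fisher's exact tests (SciPy 1.17.1) and a logistic model (statsmodels 0.14.6) compared shares over genes. Neighbours can share peaks, so loci were also tested, and p-values are over genes and not over animals. With 1 group there was no test over samples. The test procedure was tested on simulated data. The 3 added settings were chosen after seeing the data, namely leaving out tRNA-Ser genes, and the repeated sequence comparison restricted to genes with an A box match and a class, or with an anticodon.

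Genes named are the 12 of highest signal, the strongest of each class and the 4 strongest that did not pass the pooled threshold; others were named after their values were seen. Members, lists and rules were chosen with earlier results of these data known. The alternatives were the conservative list, each replicate alone, the peaks above the median signal, other distances, peak overlap, loci, unique flanks and other class definitions.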

Additional observations from a re-analysis of the deposited data

How the results depend on the processing

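The 113 genes bound became 72 (21.4%) in the peaks above the list's median signal and 12.2% to 21.1% of genes in the lists of single replicates, whose median signals at these genes were 49.8 and 51.4 and whose median summits lay at 9 and 16 bp. The A box comparison had odds ratios of 4.19 to 8.27 in the single replicate lists and lost its call in both, and the repeated sequence comparison had 1.78 to 2.82 and lost it without replicate 1. Under the other alternatives run, repeated sequences kept an adjusted p under 0.05 at odds ratios of 2.34 to 3.12, and the A box at 5.12 to 8.42, besides the setting without tRNA-Ser genes, where 0 of 12 genes leave the odds ratio without a finite value. Chromosome X against autosomes fell to 1.37 (p = 0.106) among peaks above the median signal by Fisher's exact test and to 1.32 without replicate 2, in a range of 1.32 to 1.79 over the single lists. The cause of these changes was not tested. Comparisons that had not passed also changed direction, at odds ratios of 0.796 to 1.39. Arms against centres gave 1.01 with arms as the outer parts of 4 segments, 1.00 for peak overlap, 1.00 within 100 bp, 1.08 within 500 bp, 1.13 with unique flanks and 0.731 to 1.204 in the single lists, where the main value was 0.9996. Clustered against isolated genes gave 0.863 in the joint model, 0.875 for overlap, 0.875 within 100 bp, 0.796 among peaks above the median signal, 0.814 with unique flanks, and 0.835 and 0.891 in the single lists. Host strand against opposite gave 1.00 for loci, 1.04 for overlap, 1.04 within 100 bp and 0.603 to 1.39 in the single lists. The B box core gave 1.22 in the conservative list, 1.00 for loci and 1.01 within 500 bp, and introns gave 0.846 in the conservative list. No paired analysis was possible because there is 1 group. The unknown read depth limits how far a missing peak can be read.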
